A study of Mus musculus with 12 samples.

Results

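The constant region genes of the immunoglobulin loci encode the part of the antibody that sets its class: μ (Ighm), δ (Ighd), γ (Ighg3, Ighg1, Ighg2b and Ighg2c) and α (Igha) for the heavy chain, and κ (Igkc) and λ (Iglc1 and Iglc2) for the light chain. The genes were taken by symbol from the deposited table of normalized counts. Of the 10 genes listed, 9 had a row among the 29486 genes of the table, 7 for heavy chains and 2 for light chains, and Iglc1 was not analysed here. The questions that the design allows are how the mRNA of these genes differed after DNA damage, and how it differed when the kinase ATM was inhibited before the damage.

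The cells were splenic B cells of young adult C57BL/6Babr mice with no engineered allele, enriched with a B cell isolation kit and activated in culture with lipopolysaccharide (LPS, 10 μg/ml). The 12 libraries of polyadenylated RNA fell into 3 conditions of 4 each. LPS cells received LPS for 48 h. LE cells received LPS for 48 h and then etoposide, a topoisomerase II inhibitor that leaves DNA double-strand breaks, at 20 μM for 4 h. LEKU cells received LPS for 47 h, the ATM inhibitor KU55933 at 10 μM for 1 h, and then the same etoposide treatment. No cells received KU55933 without etoposide, so its action on undamaged cells was not measured. The labels do not say whether LPS cells stayed in culture for the further 4 h, and each condition carries Illumina indexes of its own, so that time in culture and index cannot be told apart from treatment.

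A B cell first transcribes the heavy chain locus through Ighm and Ighd, and the transcript is processed to either mRNA. In class switch recombination, breaks in the transcribed DNA of 2 switch regions are joined so that a downstream constant gene takes the place of Ighm. Each downstream gene is first transcribed from its own promoter as a germline transcript that does not encode an antibody. In mouse B cells LPS induces the germline transcripts of Ighg3 and Ighg2b, interleukin 4 that of Ighg1, interferon γ that of Ighg2c, and TGFβ that of Igha. Reads on constant exons come from germline and switched transcripts alike, and from mRNA of membrane and secreted antibody, and the 4 kinds cannot be separated in these values. C57BL/6 mice carry Ighg2c where some other strains carry Ighg2a.

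In the GRCm38 annotation of GENCODE the heavy chain genes lie on the minus strand of chromosome 12 in the order Ighm (chr12:113418558-113422730), Ighd (chr12:113406604-113416324), Ighg3 (chr12:113356224-113361232), Ighg1 (chr12:113325240-113330523), Ighg2b (chr12:113302965-113307933), Ighg2c (chr12:113285325-113288932) and Igha (chr12:113254830-113260236). Transcription meets Ighd 6.41 kb after the start of Ighm, Ighg3 after 61.5 kb, Ighg1 after 92.2 kb, Ighg2b after 115 kb, Ighg2c after 134 kb and Igha after 162 kb. Igkc lies on chromosome 6 (chr6:70726435-70726966, plus strand) and Iglc2 on chromosome 16 (chr16:19198396-19200351, minus strand), where its exons overlap the joining segment Iglj2.

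The γ genes are close copies, so their sequences bear on whether reads could be told apart. The first 30 bases of the first constant exon of each γ gene are shown, read 5′ to 3′ on the coding strand, with capitals at the bases that differ from Ighg1 (chr12:113330494-113330523 for Ighg1, chr12:113307904-113307933 for Ighg2b, chr12:113288903-113288932 for Ighg2c and chr12:113361203-113361232 for Ighg3).
Ighg1: ccaaaacgacacccccatctgtctatccac
Ighg2b: ccaaaacAacacccccatcAgtctatccac
Ighg2c: ccaaaacAacaGccccatcGgtctatccac
Ighg3: cTaCaacAacaGccccatctgtctatccCT
Ighg2b differed from Ighg1 at 2 of these bases, Ighg2c at 3 and Ighg3 at 6. Over the aligned shorter transcripts of each gene Ighg2b and Ighg2c were 86.2% identical and the other pairs of γ genes 72.2% to 74.5%. No stretch of 100 bases, the read length, in the exons of any of the 9 genes occurred in a transcript of another gene, so an error-free read within an exon belongs to 1 gene.

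The λ genes are the other set of copies, shown by 30 aligned bases at the start of the constant exon with capitals at the bases that differ from Iglc2 (chr16:19198821-19198850 for Iglc2, chr16:19065650-19065679 for Iglc3 and chr16:19062040-19062069 for Iglc1).
Iglc2: cagcccaagtccactcccactctcaccgtg
Iglc3: cagcccaagtccactcccacActcaccAtg
Iglc1: cagcccaagtcTTcGccATcAGtcaccCtg
Iglc2 and Iglc3 were 94.1% identical and Iglc1 and Iglc2 66.6%. Iglc3 and Iglc4 were not analysed here, and a read of Iglc3 with sequencing errors could have been placed on Iglc2, so the values of Iglc2 are uncertain to that extent.

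The totals of the table per library, in units of 1000000 counts, lay between 20.7 and 23.9 in LPS, between 22.5 and 30.6 in LE and between 20.4 and 25.1 in LEKU. Within a condition the 4 columns were proportional for each gene to within 1.4e-14 in log2 units. They are thus fitted means of the condition times a library factor, without any spread among replicates. Whether deposited columns of different conditions overlap reflects these means and factors, and is no evidence from replicates. The statements on differences therefore rest on 1 value per condition and carry no test; the errors given cover the counting of reads only. Differences are on the scale of log2(value + 1) after the libraries were scaled to each other by the median ratio over genes, and 1.5-fold marks a difference as past the limit. All 9 genes passed the filter on low values, as did 15592 of all genes, and the lowest of their scaled values was 70.9.

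**Figure D1:**
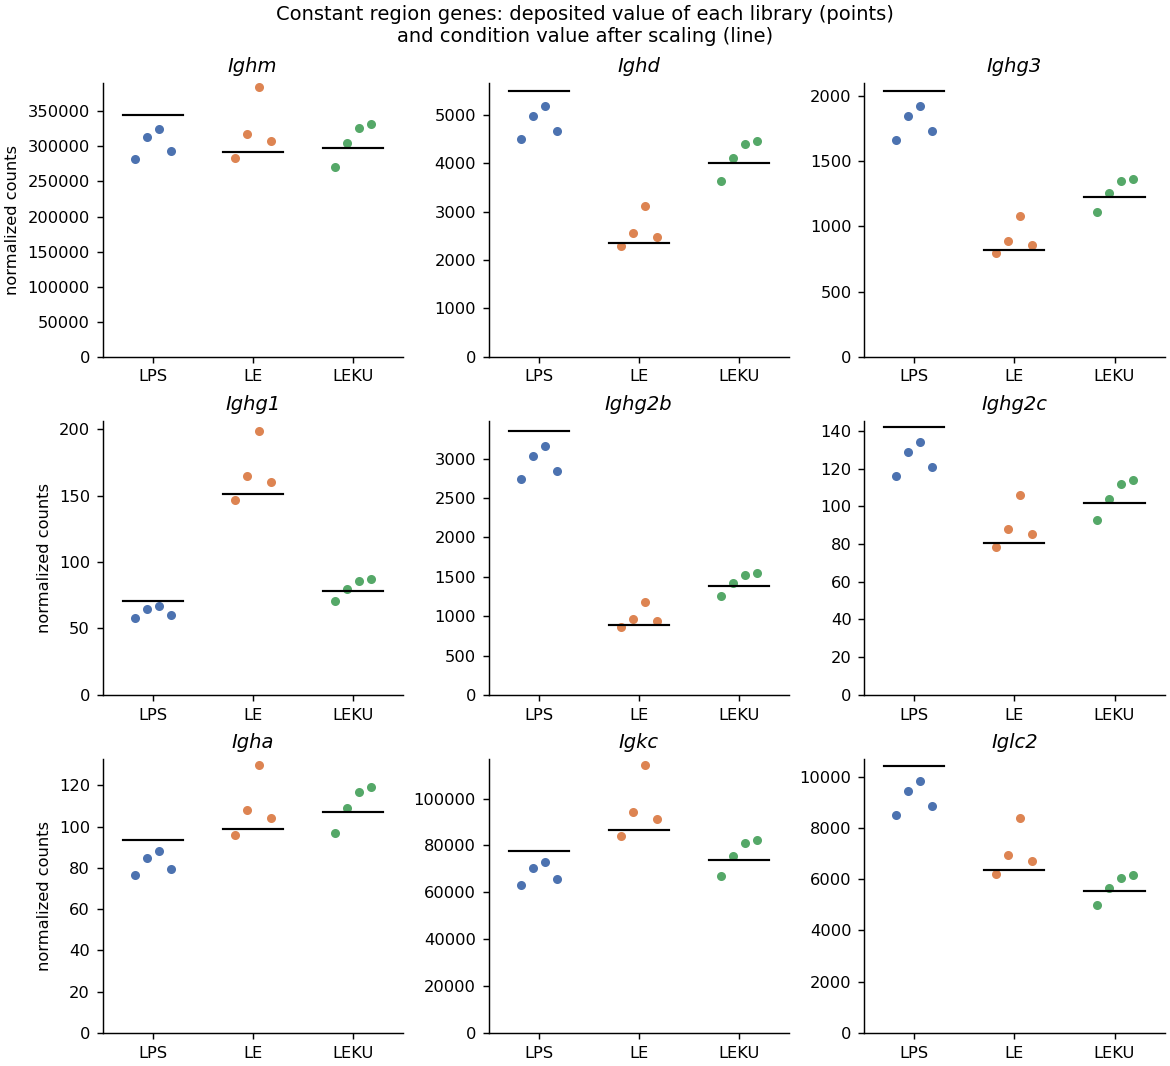
Normalized counts (vertical axes from 0) of the 9 constant region genes in the 12 libraries. Points are the deposited values of the 4 libraries of LPS, LE and LEKU, whose scatter within a condition is the library factor alone, and the line is the condition value after scaling, which lies above the LPS points because the LPS factors are under 1. Ighd, Ighg3 and Ighg2b were lowest in LE and Ighg1 was highest there.

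The largest differences between LE and LPS were in Ighg2b, Ighg3, Ighd and Ighg1. Relative to LPS, 5 of the 9 genes were at least 1.5-fold lower in LE (Ighg2b, Ighg3, Ighd, Ighg2c and Iglc2), Ighg1 was at least 1.5-fold higher, and Ighm, Igha and Igkc were within the limit. Among all genes that passed the filter, 16.4% were at least 1.5-fold lower and 21.9% at least 1.5-fold higher. The median difference of the 9 genes was -0.71 on the log2 scale, against -0.02 for all genes.

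In LEKU the order was partly the opposite. Relative to LE, Ighd, Ighg2b and Ighg3 were at least 1.5-fold higher, Ighg1 was at least 1.5-fold lower, and the other 5 genes were within the limit, with 7.22% of all genes at least 1.5-fold higher and 11.6% at least 1.5-fold lower. The median difference was 0.11, against -0.04 for all genes. Both comparisons use the LE libraries, so a value that is low in LE for any reason is low in the first and raises the second.

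LEKU set against LPS, which shares the LPS libraries with the first comparison, left 3 genes at least 1.5-fold lower (Ighg2b, Iglc2 and Ighg3) and none higher, where 15.7% of all genes were lower and 20.5% higher. With library totals and on the columns as deposited 2 genes were lower, and Ighg3 was within the limit. Under quantile normalization 3 were lower, with Ighg2c in place of Iglc2. The median of the 9 genes was -0.45, against 0.02 for all genes.

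**Figure D2:**
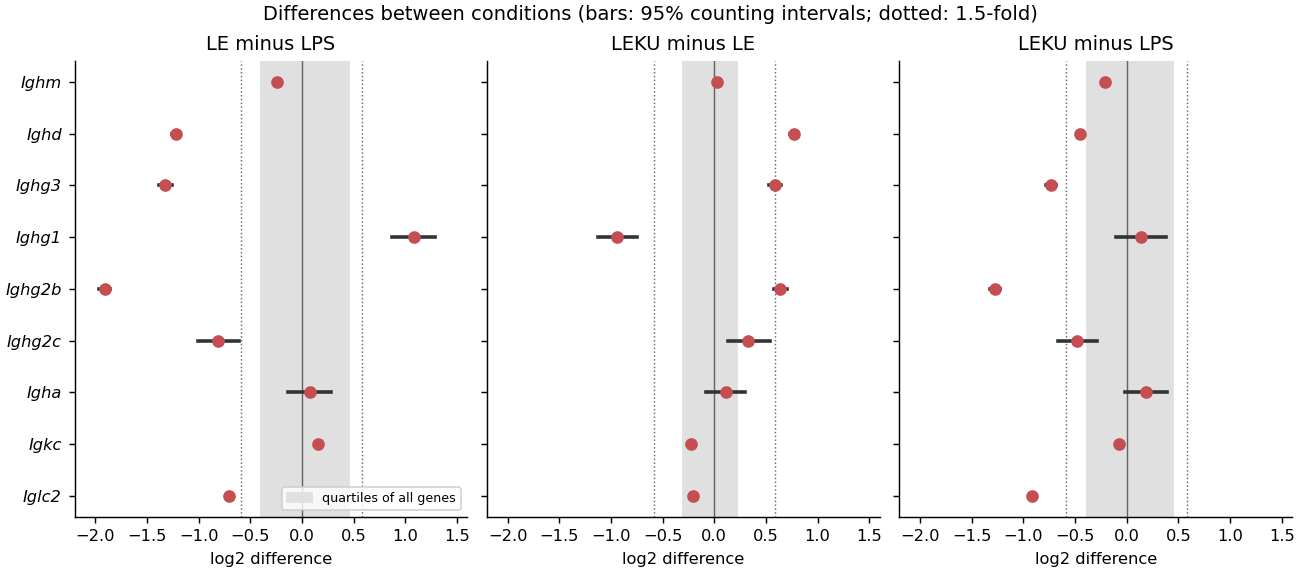
Differences in log2(value + 1) of the 9 genes between conditions (horizontal axes), with 95% counting intervals as bars, the quartiles of all genes shaded and the 1.5-fold limits dotted. Ighg2b (-1.91) and Ighg1 (1.08) mark the ends in LE minus LPS, and Ighg1 (-0.94) and Ighd (0.77) the ends in LEKU minus LE.

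Ighm, the gene of the μ chain of IgM, had the highest count of the set in each condition. It was deposited at 281988, 312850, 325437 and 293245 in LPS libraries 1 to 4, at 283322, 317553, 384603 and 307845 in LE, and at 270285, 304791, 326528 and 331905 in LEKU. The 3 ranges, which hold no replicate spread, overlapped. After scaling, Ighm was at 344976 in LPS, 291574 in LE and 297913 in LEKU, and its rank by value among all rows was 1 in LPS and 2 in both LE and LEKU. The difference of LE from LPS was -0.24 (counting SE 0.0018), between -0.11 and -0.22 under the other scalings that adjust for the libraries, and 0.09 on the columns as deposited, so that its direction depends on the scaling. LEKU differed from LE by 0.03, which became -0.07 as deposited.

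Ighd, whose mRNA is made from the same primary transcript as that of Ighm and marks mature B cells, differed more. It was deposited at 4496, 4988, 5189 and 4675 in LPS, at 2290, 2567, 3109 and 2488 in LE, and at 3641, 4106, 4399 and 4471 in LEKU. Every LE column, a fitted mean times a library factor, was below every column of the other conditions. Every LEKU column was below every LPS column. The scaled value was 5500 in LPS, 2357 in LE (2.33-fold lower, log2 difference -1.22, counting SE 0.018) and 4013 in LEKU (1.70-fold higher than LE, 0.77, counting SE 0.018). LEKU was 1.37-fold lower than LPS.

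The ratio of Ighm to Ighd within a library is the same under any scaling that multiplies a whole library by 1 factor, which quantile normalization does not. It was 62.7 in LPS, 124 in LE and 74.2 in LEKU, so the genes that share a primary transcript differed from each other by 0.98 on the log2 scale in LE against LPS. Zfp318, a factor needed for the long transcript that holds Ighd, was at 4102 in LPS, 3207 in LE and 4471 in LEKU. It was lowest in LE, as Ighd was, by -0.36 from LPS and with 0.48 for LEKU from LE, within the limit in each comparison. Zfp318 was named after its values were seen, and its part in the values of Ighd was not tested.

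Among the γ genes Ighg2b, the gene of IgG2b, had the largest difference. Its deposited values were 2740, 3039, 3162 and 2849 in LPS, 866, 970, 1175 and 940 in LE, and 1258, 1419, 1520 and 1545 in LEKU. The lowest LPS column was above the highest of the other 8, again without replicate spread. Scaled values were 3352, 891 and 1387 in LPS, LE and LEKU. LE was 3.76-fold lower than LPS (log2 difference -1.91, counting SE 0.027), LEKU 1.56-fold higher than LE (0.64, counting SE 0.03) and LEKU 2.42-fold lower than LPS (-1.27). On the columns as deposited LEKU differed from LE by 0.54, within the limit.

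Ighg3, the gene of IgG3 and the first γ gene of the locus, had the same order of conditions. It was deposited at 1663, 1845, 1919 and 1729 in LPS, at 792, 887, 1075 and 860 in LE, and at 1112, 1254, 1343 and 1365 in LEKU. The 3 ranges, which hold no replicate spread, did not overlap. Scaled, it was at 2034, 815 and 1225. LE was 2.50-fold lower than LPS (-1.32, counting SE 0.029). LEKU was higher than LE by 0.59 (counting SE 0.031), which lies on the limit of 1.5-fold, and 1.66-fold lower than LPS (-0.73). Under TMM factors the difference of LEKU from LE was 0.57 and as deposited 0.49, both short of the limit. The difference of LEKU from LPS was -0.56 with library totals and -0.50 as deposited, also short of it.

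Ighg1, the gene of IgG1, went the other way. Its deposited values were 58.0, 64.3, 66.9 and 60.3 in LPS, 147, 165, 199 and 160 in LE, and 71.0, 80.0, 85.7 and 87.2 in LEKU. Each LE column was above all columns of the other conditions, again without replicate spread. Scaled values were 70.9, 151 and 78.2, so that LE was 2.13-fold higher than LPS (1.08, counting SE 0.11) and LEKU 1.93-fold lower than LE (-0.94, counting SE 0.098). LEKU differed from LPS by 0.14, with a counting interval from -0.10 to 0.38, and by -0.10 under quantile normalization.

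Ighg2c was lower in LE than in LPS by a smaller amount, at 142 in LPS, 80.7 in LE and 102 in LEKU. The deposited columns lay between 116 and 134 in LPS, 78.4 and 106 in LE, and 92.6 and 114 in LEKU. The ranges of LE and LEKU, which hold no replicate spread, overlapped. LE was 1.76-fold lower than LPS (-0.81, counting interval -1.01 to -0.61) and LEKU differed from LE by 0.33 (0.13 to 0.54). The difference of LE from LPS was -0.48 on the columns as deposited, within the limit, and that of LEKU from LPS (-0.48) was -0.64 under quantile normalization, past it.

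Igha, the gene of IgA and the last of the locus, was at 93.7 in LPS, 98.8 in LE and 107 in LEKU. The difference of LE from LPS was 0.08, with a counting interval from -0.13 to 0.28 that includes 0, and became -0.25 under quantile normalization. Ighe, the gene of IgE, was at 5.39, 5.93 and 4.72 in LPS, LE and LEKU and did not pass the filter. Its difference of LE from LPS was 0.12, with a counting interval from -0.73 to 0.97. Differences within that width could not be resolved at this depth.

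**Figure D3:**
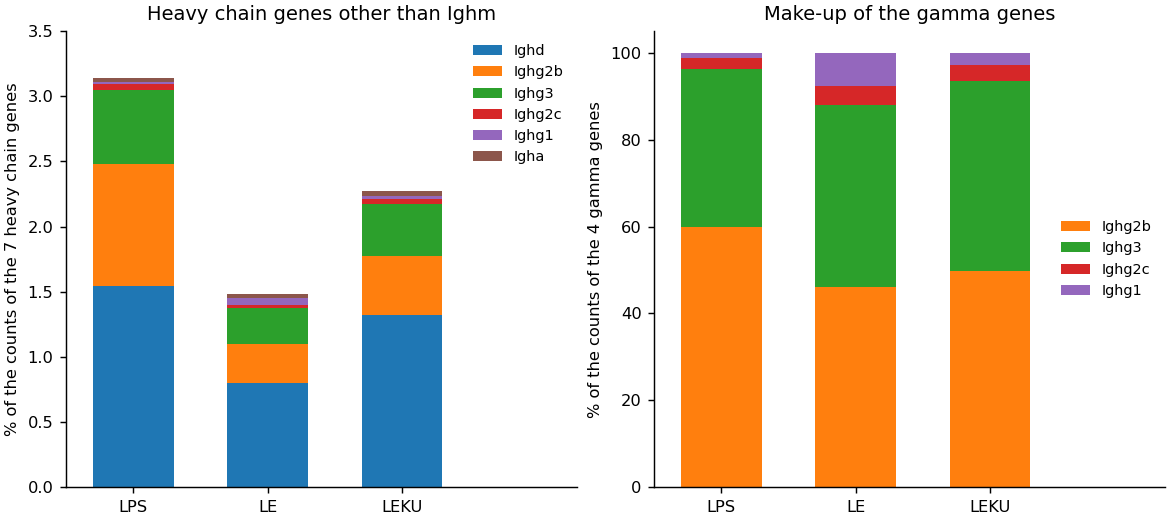
Left, share of the 7 heavy chain genes' counts taken by each gene other than Ighm (percent, stacked bars) in LPS, LE and LEKU; right, share of the 4 γ genes' counts taken by each γ gene (percent). The genes other than Ighm made up 3.14% in LPS, 1.48% in LE and 2.27% in LEKU, and Ighg1 7.80% of the γ counts in LE.

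Shares of counts within a library, as deposited, give the make-up of the heavy chain mRNA without a scaling factor. Ighm took 96.9% of the counts of the 7 heavy chain genes in LPS, 98.5% in LE and 97.7% in LEKU. The other 6 genes together took 3.14% in LPS (95% Wilson interval 3.11 to 3.17), 1.48% in LE (1.46 to 1.51) and 2.27% in LEKU (2.24 to 2.29). The 4 γ genes took 1.57%, 0.655% and 0.916% in the same order, and Ighd 1.54%, 0.796% and 1.32%.

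The γ genes also differed among themselves. Ighg2b made up 59.9% of the γ counts in LPS (59.2 to 60.5), 46.0% in LE (44.9 to 47.0) and 49.7% in LEKU (48.8 to 50.6). Ighg3 made up 36.3%, 42.1% and 43.9%. The share of Ighg1 was 1.27% in LPS (1.12 to 1.43), 7.80% in LE (7.25 to 8.38) and 2.80% in LEKU (2.52 to 3.12). The sum of the γ genes was lower in LE than in LPS by 1.53 on the log2 scale (5599 and 1937), and Ighg1 supplied a larger part of the smaller sum.

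Igkc, the only κ constant gene, was within the limit in all 3 comparisons. It was deposited at 63315, 70244, 73071 and 65842 in LPS, at 84170, 94339, 114258 and 91455 in LE, and at 66960, 75509, 80894 and 82226 in LEKU. The LE columns, again without replicate spread, were above all others before scaling, and the ranges of LPS and LEKU overlapped. Library factors were also larger in LE (0.972 to 1.32) than in LPS (0.817 to 0.943). Scaled values were 77458, 86621 and 73805. LE differed from LPS by 0.16, where the columns as deposited gave 0.50, and LEKU differed from LE by -0.23. The difference of Igkc between LEKU and LPS was -0.07, and 0.18 under quantile normalization.

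Iglc2, a λ constant gene, was lower in both etoposide conditions. It was deposited at 8508, 9439, 9819 and 8847 in LPS, at 6187, 6935, 8399 and 6723 in LE, and at 5007, 5646, 6048 and 6148 in LEKU. The ranges, which hold no replicate spread, did not overlap. Scaled values were 10408, 6367 and 5518. LE was 1.63-fold lower than LPS (-0.71, counting SE 0.011), and this difference was -0.58 with library totals, -0.40 under quantile normalization and -0.37 as deposited, all within the limit. LEKU was 1.89-fold lower than LPS (-0.92), which was -0.53 and within the limit under quantile normalization, and differed from LE by -0.21. Unlike those of Ighd, Ighg3, Ighg2b and Ighg2c, its values in LEKU were not above those in LE.

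The ratio of Igkc to Iglc2 was 7.44 in LPS, 13.6 in LE and 13.4 in LEKU. Igkc accordingly made up 88.2% of the counts of both light chain genes in LPS (88.0 to 88.3), 93.2% in LE (93.1 to 93.2) and 93.0% in LEKU (93.0 to 93.1). The 9 genes together took 1.75% of all counts in LPS, 1.68% in LE and 1.71% in LEKU. The differences in Ighd and the γ genes thus stood within a nearly equal share of all counts, which Ighm and Igkc set. On the scaled values the heavy chain sum differed by -0.27 in LE from LPS and the light chain sum by 0.08.

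Levels between genes can be compared per kilobase of exon. On this scale Ighm was at 182914 in LPS and 157960 in LEKU, above Igkc at 145597 and 138731, whereas in LE Igkc (162822) was above Ighm (154599). Iglc2 followed at 17007, 10404 and 9017, and Ighd at 2895, 1240 and 2112. Ighg2b (1252) was above Ighg3 (810) in LPS, but in LE their counting intervals overlapped (322 to 343 and 314 to 335).

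The scarcest genes per kilobase were Ighg2c, Ighg1 and Igha. Ighg2c was at 107, 60.9 and 77.0 in LPS, LE and LEKU, Igha at 35.1, 37.0 and 40.0, and Ighg1 at 27.4, 58.3 and 30.2. Ighg1 was below Igha in LPS and LEKU and above it in LE, where its interval (54.0 to 62.9) overlapped that of Ighg2c (54.7 to 67.5). The annotation gives Ighg2c 1326 bases of exon and the other γ genes 2512 to 2678, so levels per kilobase depend on which ends are annotated. The paper counted reads on another annotation of GRCm38, whose exon lengths may differ.

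The variable segments joined to the constant regions were compared as sums over their rows. The summed value of 146 rows of Ighv segments was 49423 in LPS, 45186 in LE and 44814 in LEKU, and that of 101 rows of Igkv segments was 65736, 74923 and 62725. The ratio of the heavy constant genes to the Ighv sum was 7.21, 6.55 and 6.80, and that of Igkc to the Igkv sum was 1.18, 1.16 and 1.18. Constant and variable parts of the κ mRNA therefore kept nearly 1 ratio in the 3 conditions.

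**Figure D4:**
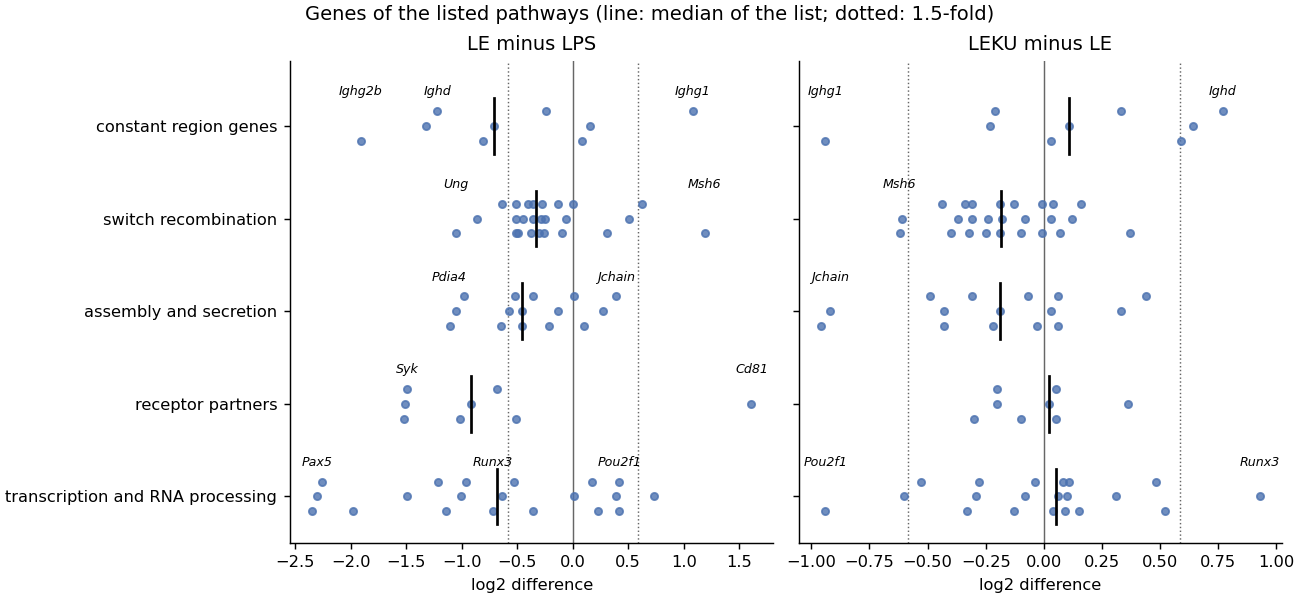
Log2 differences of the constant region genes and of the genes in 4 lists (points, without the genes not reported here; horizontal axes), in LE minus LPS and in LEKU minus LE, with the median of each whole list as a line and the 1.5-fold limits dotted. The medians of the 4 lists lay between -0.92 and -0.33 on the left and between -0.19 and 0.05 on the right.

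Of 26 genes that act in class switch recombination, 4 were at least 1.5-fold lower (15.4%, against 16.4% of all genes) and 2 higher (7.69%, against 21.9%) in LE than in LPS, with a median of -0.33. The shares of the list past the limit were thus no larger than those of all genes in this comparison. Even so, 22 of the 26 genes were below 0, and the median of all genes was -0.02. Ung, which removes uracil from DNA, differed by -1.05 in LE from LPS, and Nbn, a subunit of the complex that senses broken ends, by -0.86. Msh6, of the mismatch sensor, was higher in LE (1.19), as was Hmces (0.62), which shields abasic sites.

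In LEKU against LE, 2 genes of this list were at least 1.5-fold lower, Msh6 (-0.62) and the exonuclease gene Exo1 (-0.61), (7.69%, against 11.6% of all genes), and 23 of the 26 were within the limit, with a median of -0.18. LEKU set against LPS had 10 of the 26 at least 1.5-fold lower (38.5%, against 15.7% of all genes) and none higher, with a median of -0.41.

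Of 15 genes with a row for antibody assembly and secretion, 4 were at least 1.5-fold lower in LE than in LPS (26.7%, against 16.4% of all genes) and none was higher, with a median of -0.46. Among them were Pdia4, an oxidoreductase of the endoplasmic reticulum (-1.11), Derl3, which acts in the removal of misfolded proteins (-1.05), and Ero1lb, which supplies oxidizing power for disulfide bonds (-0.98). Jchain, the chain that joins IgM and IgA monomers, was at 3923, 5127 and 2703 in LPS, LE and LEKU. In LEKU against LE, Irf4, a transcription factor of plasma cell differentiation (-0.96), and Jchain (-0.92) were lower (13.3% of the list, against 11.6% of all genes) and 13 were within the limit.

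Of the 9 partners of the B cell receptor, 7 were at least 1.5-fold lower in LE than in LPS (77.8%, against 16.4% of all genes), with a median of -0.92. Each of the 9 reached 4748 or more in some condition, whereas all genes that passed the filter include far lower values. The paper reports that highly expressed genes were reduced as a group after etoposide. Neither the lists nor the B cell markers were compared with genes of like level. Cr2, the complement receptor of the coreceptor (-1.52), and the kinases Lyn (-1.51) and Syk (-1.49) had the largest differences, whereas Cd81, a tetraspanin of the coreceptor, was higher (1.61). In LEKU against LE the median was 0.02 and 8 of the 9 were within the limit.

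Of 20 factors of immunoglobulin transcription and RNA processing, 11 were at least 1.5-fold lower in LE than in LPS (55%, against 16.4% of all genes) and 1 was higher (5.00%, against 21.9%), with a median of -0.68. The B cell factors Ikzf1 (-2.35), Pax5 (-2.30) and Ebf1 (-2.26) were the lowest. In LEKU against LE these 3 differed by 0.04, 0.06 and -0.08. There the factors past the limit were Runx3, which acts in switching to IgA (0.93), Pou2f1, an octamer-binding factor (-0.94), and Yy1 (-0.60), 1 higher (5.00% of the list, against 7.22% of all genes) and 2 lower (10.0%, against 11.6%), and the other 17 were within it. Runx3 was at 4018 in LPS, 2433 in LE and 4640 in LEKU, and differed by -0.72 in LE from LPS. Of the 20 factors, 11 were above 0 and 9 below 0 in LEKU against LE. The part of these factors in the values of the constant region genes was not tested.

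The labelled cell type was checked against marker genes. The 6 B cell markers were all present, with a summed value of 133634 in LPS, 73156 in LE and 82567 in LEKU, and 5 of the 6 were at least 1.5-fold lower in LE than in LPS (83.3%, against 16.4% of all genes, median -0.67). The 6 T cell markers summed to 11.1, 22.7 and 14.7, the 5 markers of macrophages to 313, 257 and 256, and the 4 of red blood cells to 209, 137 and 100. Of the T cell markers, Cd3d, Cd3e, Cd3g, Cd4 and Cd8a were below 4 in each condition, and Trac was at 2.91, 13.7 and 5.40. Of the macrophage markers, Itgam was lower in LE than in LPS (220, 129 and 115 in LPS, LE and LEKU), whereas Cd14 (5.18, 24.2 and 40.6), Csf1r (4.18, 10.3 and 9.72) and Lyz2 (34.3, 48.0 and 51.2) were higher in LE and in LEKU than in LPS, and Adgre1 was at 49.0, 45.2 and 39.5. In whole cultures, fewer cells of a type and less RNA per cell cannot be told apart.

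Of the plasma cell markers, 4 had a row, with summed values of 14040, 14115 and 9996. Sdc1, the surface proteoglycan of plasma cells, was at 138 in LPS, 1954 in LE and 636 in LEKU. Jchain (3923, 5127 and 2703) was also higher in LE than in LPS, within the limit (0.39). Prdm1 (2361, 1716 and 1221) and Xbp1 (7617, 5318 and 5436) were not higher in LE. The part of these genes in the values of the constant region genes was not tested. The genes for early B cell development were near 0, with summed values of 9.26, 22.1 and 15.3 for 6 genes.

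Among 10865 other genes with a mean of at least 100, the nearest to the median pattern of the 9 genes over both differences were Scaf11 (-0.71 and 0.11), Tmem186 (-0.70 and 0.11) and Gm15542 (-0.71 and 0.10). Their distances from it were 0.0050, 0.0070 and 0.0151 on the log2 scale, and 127 genes lay within 0.1. The likeness is over 3 fitted condition values and is to a median pattern that no single member had. The 9 genes ranged from -1.91 to 1.08 in LE against LPS and from -0.94 to 0.77 in LEKU against LE.

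**Figure D5:**
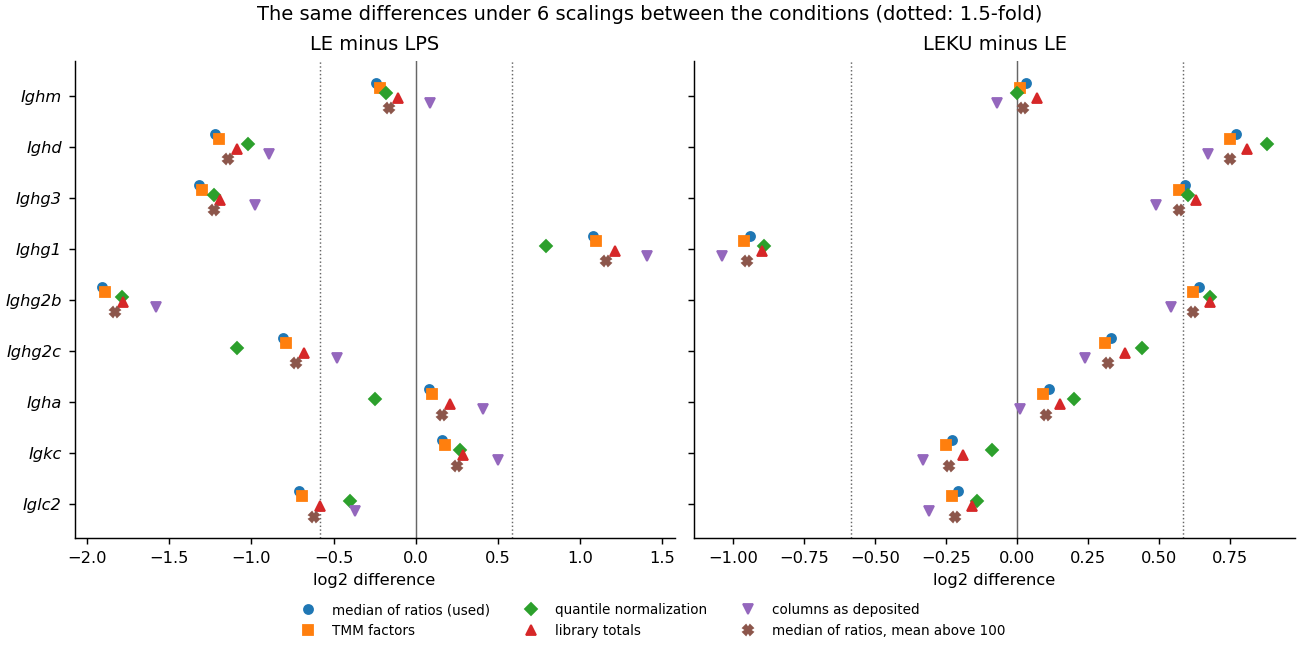
Log2 differences of the 9 genes (horizontal axes) in LE minus LPS and in LEKU minus LE under 6 ways to scale the conditions, with the 1.5-fold limits dotted. Ighd, Ighg3, Ighg2b, Ighg2c and Iglc2 lay below 0 and Ighg1 and Igkc above 0 in LE minus LPS under all 6, while Ighm and Igha crossed 0.

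The background of calls depends on the scaling. Of the genes past 1.5-fold in LE against LPS, 57.2% were higher, and this share was 46.2% under quantile normalization, 67.8% with library totals and 81.8% on the columns as deposited. In LEKU against LE the share was 38.3%, and 48.3% under quantile normalization and 25.6% as deposited. In LEKU against LPS it was 56.6%, and 71.9% with library totals and 76.6% as deposited. The median of all genes shifted by 0.13 in LE against LPS with library totals and by 0.33 as deposited, and the differences of Ighd, Ighg3, Ighg2b and Ighg1 were larger than these shifts.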

How the data were processed

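Polyadenylated RNA of 12 libraries was prepared with a stranded Illumina kit and sequenced as single reads of 100 bases. The authors trimmed reads (Trim Galore, cutadapt 1.2.1), mapped them to GRCm38 with TopHat2 2.0.12, counted them per gene with HTSeq and fitted them with DESeq2 1.6.3. The strand setting and the treatment of reads with several matches are not given in the sources used here. The deposited signal per gene and library proved to be a fitted condition mean times a library factor. The fit of that version moderates differences toward 0 by default, and whether the default was kept is not given in the sources used here. The 3 deposited comparison tables (fold changes, errors, p-values) hold the authors' own tests and were not used.

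Columns were scaled by the median of ratios and filtered (at least 10 in at least 4 libraries), with a pseudocount of 1 and a limit of 1.5-fold. The planned limma test needs a spread between replicates and could not be run. Intervals are 95% Poisson or Wilson intervals of the summed columns and cover counting error only. PCR duplicates were not identified by molecular identifiers. Whether the scaling holds where many genes differ between conditions was not tested. Gene models were GENCODE M21, whereas the paper counted reads on another annotation of GRCm38. Exon lengths, overlaps and shared stretches given here may thus differ from those of the counted exons. Python 3.11.15, numpy 2.4.6, pandas 2.3.3, scipy 1.17.1 and matplotlib 3.10.9 were used.

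The members and lists were chosen with earlier results of these data known. Named genes are all members, other constant genes, and, from each list, the 3 genes past 1.5-fold with the largest difference each way in LE against LPS and LEKU against LE and a mean of at least 100. Cell type markers were listed separately. Zfp318 was added after its values were seen. Results for some genes of the lists are not reported here. The alternatives were TMM (trims of 30% and 5%), quantile normalization, library totals, columns as deposited, no filter, a minimum of 50, pseudocounts of 0.5 and 5, a limit of 2-fold, and leaving out each library. Scaling on genes with a mean above 100 was added after seeing the data.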

Additional observations from a re-analysis of the deposited data

How the results depend on the processing

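The median difference of the 9 genes between LE and LPS (-0.71) was -0.69 with TMM factors, -0.40 under quantile normalization, -0.58 with library totals, -0.37 on the columns as deposited and -0.62 when scaled on genes with a mean above 100, a choice made after seeing the data. Between LEKU and LPS the median (-0.45) was -0.18, -0.28, -0.22 and -0.38 under the last 4 of these. The number of genes past the limit in LEKU against LE (4) was 2 on the columns as deposited and 0 with a limit of 2-fold, where that in LEKU against LPS (3) was 1. Leaving out each library in turn moved only the scaling: the median lay between -0.71 and -0.69 for LE against LPS, between 0.10 and 0.12 for LEKU against LE and between -0.45 and -0.45 for LEKU against LPS, with 6 to 6, 3 to 4 and 3 to 3 genes past the limit. Per exonic kilobase the share of Igkc was 89.5% in LPS, 94.0% in LE and 93.9% in LEKU, and of 21 shares of the heavy chain genes 18 moved beyond their intervals. Adding Ighe left all 21 within them. No paired analysis was possible because the columns hold no spread between replicates. Depth limits Ighg1, Ighg2c, Igha and Ighe, whose counts are lowest.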

Other observations

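The joining segments, which lie between the variable segments and Ighm or Igkc, were summed after the values of the other segments had been seen. The 4 rows of Ighj segments summed to 970 in LPS, 337 in LE and 452 in LEKU, with differences of -1.52 for LE from LPS and 0.42 for LEKU from LE, while the Ighv sum differed by -0.13 and -0.01. The 5 rows of Igkj segments summed to 1552, 1086 and 941 (-0.51 and -0.21), while the Igkv sum differed by 0.19 and -0.26. The 3 rows of Iglv segments summed to 7754, 8049 and 6454, and differed by 0.05 in LE from LPS, where Iglc2 differed by -0.71. The Iglv sum is not limited to segments joined to Iglc2, and Iglc1, Iglc3 and Iglc4 were not analysed here, so the sets are unlike.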
